A study of Mus musculus with 8 samples.

Results

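The 77 genes described here encode the proteins of the cytoplasmic ribosome, 46 of the large subunit and 31 of the small subunit, out of 35976 genes in the deposited mouse expression table. They were chosen by symbol alone, as every gene named Rpl, Rps, Rplp or Rpsa in the standard series, and the rule used no measured value. Genes that encode ribosomal proteins under other names (such as Fau and Rack1) and paralogs whose symbols end in a further letter fall outside the rule and are given separately. All 77 passed the filter on low values.

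Each cytoplasmic ribosome holds a single copy of nearly every one of these proteins, so the cell makes them in balanced amounts, and unassembled copies are degraded in the nucleus and cytoplasm. Their mRNAs are short, abundant and stable, and begin with a run of pyrimidines, the 5′ terminal oligopyrimidine (TOP) tract, through which the kinase mTOR and the RNA-binding protein Larp1 set their translation. In muscle cells ribosome supply is known to follow growth signals, and several ribosomal proteins also bind Mdm2, the ubiquitin ligase of p53, when ribosome assembly is disturbed.

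RNA was sequenced from C2C12 cells, an established line of mouse myoblasts that can be made to fuse into myotubes, 48 h after transfection. The cells of 4 libraries carried an shRNA against Atad2 (the gene of a bromodomain ATPase on chromatin), and those of the other 4 a non-targeting control shRNA. All 8 libraries came from this single line, and the labels list skeletal muscle as tissue and myoblast as cell type for both groups. The labels name no further allele, agent or sort, and whether replicates were grown or transfected apart is not stated, so the p-values reflect the spread among 8 libraries that may differ only technically.

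Levels are log2(normalized count + 1) as deposited, and differences are log2 fold changes of Atad2 shRNA over control shRNA ± SE. Adjusted p-values are from limma over the 14703 genes whose mean level was above 3, with Benjamini-Hochberg adjustment. The words higher, lower, rose and fell are used for genes at an adjusted p under 0.05. Depth, recovered from the values, was 50.3 to 72.3 Mreads (M for mega) in the Atad2 shRNA libraries and 61.4 to 73.0 Mreads in the control libraries. A count of 3 reads corresponds to 0.0411 to 0.0596 RPM. These floors cover counting error only. The target itself, Atad2 (chromosome 15, 58094044 to 58135525 on GRCm38), lay at 11.87, 11.77, 12.05 and 12.05 in the Atad2 shRNA libraries and at 14.66, 14.74, 14.67 and 14.61 in the control libraries. The groups did not overlap, and the log2 fold change was -2.73 ± 0.05 (limma adjusted p = 4.6e-20). An exact permutation test over the 8 libraries, two-sided, gave p = 0.0286, the smallest that the 70 assignments allow.

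The cell markers fitted the labelled line in part. The myoblast genes Myod1 and Des averaged 12.86 and 15.12 in the Atad2 shRNA libraries, against 12.61 and 14.74 in the control libraries. Of the 6 myoblast markers these 2 were higher and 4 lower. Those lower were Vcam1, Pax7, at 1.44 with Atad2 shRNA and 4.70 in controls, Myf5, at 8.26 and 9.54, and Cdh15, at 11.75 and 12.71. The embryonic myosin Myh3 averaged 7.58 in the Atad2 shRNA libraries and 2.14 in the control libraries. Of the 3 myotube markers tested, Myh3 and Myh1 were higher. The third, Acta1, did not pass the test, at 8.88 with Atad2 shRNA and 8.97 in controls. Myh2, Myh4 and Ckm were below the filter. All 3 fibroblast markers tested (Pdgfra, Col1a1, Dcn) were higher and Thy1 was listed at 0 in all 8 libraries. The immune marker Adgre1 was also listed at 0, Ptprc averaged 0.57 with Atad2 shRNA and 0.81 in controls, and Cd68 averaged 9.10 with Atad2 shRNA and 7.92 in controls. Csf1r did not pass the test. The endothelial markers Cdh5 and Pecam1 averaged 0.23 and 3.46 with Atad2 shRNA and 0 and 1.91 in controls, and Kdr did not pass the test. The part of these shifts in the results below was not tested, and in bulk RNA fewer cells of a type and less RNA per cell cannot be told apart.

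The promoter sequences of 57 of the 77 genes were in the RefSeq table for GRCm38.p6, each running from 250 bases before to 50 after the annotated start. The windows printed here cover 100 bases before to 30 after the start, 5′ to 3′ on the gene's own strand. They belong to the genes with the largest positive differences and to those at the low end of the family that had an entry, so that the promoters of both ends can be read side by side. Capitals mark the 6-base ETS-type motif CCGGAA or its reverse complement.
Rpl13a, chr7:45128716-45128845, minus strand: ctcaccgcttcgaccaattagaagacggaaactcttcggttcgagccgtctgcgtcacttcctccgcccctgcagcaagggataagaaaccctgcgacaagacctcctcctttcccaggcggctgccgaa
Rpl11, chr4:136053364-136053493, minus strand: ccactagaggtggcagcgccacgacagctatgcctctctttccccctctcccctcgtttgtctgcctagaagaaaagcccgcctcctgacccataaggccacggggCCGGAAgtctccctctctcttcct
Rpl15, chr14:18270957-18271086, minus strand: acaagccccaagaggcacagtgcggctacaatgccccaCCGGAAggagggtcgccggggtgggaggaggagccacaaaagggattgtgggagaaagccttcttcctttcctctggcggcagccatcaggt
Rpl14, chr9:120571417-120571546, plus strand: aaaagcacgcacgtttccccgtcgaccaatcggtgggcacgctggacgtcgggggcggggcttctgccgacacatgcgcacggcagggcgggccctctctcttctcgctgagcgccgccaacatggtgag
Rps28, chr17:33824533-33824662, minus strand: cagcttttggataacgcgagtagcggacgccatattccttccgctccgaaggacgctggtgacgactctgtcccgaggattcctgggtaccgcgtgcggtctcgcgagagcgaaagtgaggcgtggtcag
Rps27, chr3:90213619-90213748, minus strand: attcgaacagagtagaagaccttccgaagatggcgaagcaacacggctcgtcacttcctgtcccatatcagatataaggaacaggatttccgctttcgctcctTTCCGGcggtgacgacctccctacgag
Rpl41, chr10:128549139-128549268, minus strand: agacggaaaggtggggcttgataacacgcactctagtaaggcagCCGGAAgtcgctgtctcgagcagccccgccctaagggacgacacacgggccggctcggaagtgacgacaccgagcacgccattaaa
Rpl39, chrX:37085193-37085322, minus strand: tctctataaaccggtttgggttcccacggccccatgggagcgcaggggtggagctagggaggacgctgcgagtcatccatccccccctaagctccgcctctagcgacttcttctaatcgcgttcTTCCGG

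Within these windows the marked motif was found near the start of genes at both ends, Rpl11 and Rpl15 among the high ones and Rps27, Rpl41 and Rpl39 among the low ones. Over the full promoter entries and both strands, CCGGAA was found in 32 of the 57 ribosomal protein promoters (56.1%), against 30.1% of the promoters of 10514 other tested genes and 16.6% of 26968 other genes. A pyrimidine run, a C followed by at least 7 further C or T on the gene's strand within 40 bases of the start, was found in 40 of 57 (70.2%), against 26.3% of other tested genes. GCCATNTT was found in 11 (19.3%), against 9.67% of other tested genes. The E-box CACGTG was found in 6 (10.5%), against 11.4%, TATAAA in 6 (10.5%), against 9.06%, and CCAAT in 18 (31.6%), against 43%. These matches are descriptions of letters in a window and not sites of binding.

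Most ribosomal protein mRNAs were slightly more abundant after Atad2 knockdown. Of the 77 genes, 67 were higher in the Atad2 shRNA libraries, 1 was lower and 9 did not pass the test. The background was high, since 30.8% of all genes tested were higher and 29.6% were lower, or 60.4% in either direction. Among the 1647 other genes with a mean level of at least 13, the range that holds 71 of the 77 members, 56.5% were higher and 21.0% lower. The median log2 fold change was 0.20 over the 77 genes, a fold of 1.15. The median over all genes tested was -0.01, and that over the other abundant genes 0.10.

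**Figure D1:**
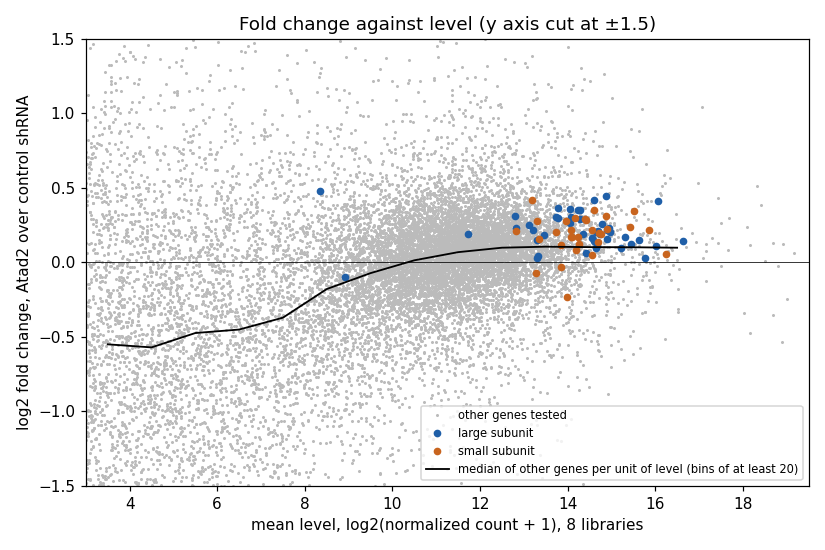
Log2 fold change of Atad2 shRNA over control shRNA (y axis) against the mean level over the 8 libraries in log2(normalized count + 1) (x axis), for large subunit genes, small subunit genes and all other genes tested, with the median of the other genes per unit of level as a line. Most ribosomal protein genes lie to the right, above a mean level of 13, and above the line, which is at about 0.10 there.

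Sizes were small throughout. The interquartile range of the log2 fold change was 0.14 to 0.29. Of the higher genes 16 reached 0.3, 48 lay between 0.1 and 0.3, and 3 were under 0.1. Of the 77, 22 changed by at least 1.2-fold and 0 by 1.5-fold. Replicates of a gene lay close together, with a median SD of 0.05 in both groups, and 74 genes had an SD under 0.1 in both. The Atad2 shRNA and control libraries did not overlap for 64 genes, higher with Atad2 shRNA in 63 and lower in 1. Over all genes tested, 27.7% were non-overlapping and higher and 25.8% non-overlapping and lower, and among the other abundant genes 52.2% were non-overlapping and higher.

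Seen by library, the family took 3.16%, 3.24%, 3.11% and 3.14% of all reads in the Atad2 shRNA libraries, and 2.93%, 2.88%, 2.82% and 2.99% in the control libraries. The lowest Atad2 shRNA library was above the highest control library. The median deviation of the 77 genes from their control means was 0.23, 0.24, 0.18 and 0.19 in the Atad2 shRNA libraries and 0.02, -0.01, -0.06 and 0.04 in the control libraries. These shares and medians rest on reads that sum to all genes of a library, and the number of genes with a read also differed, at 17544 to 17894 with Atad2 shRNA and 18845 to 18939 in controls. The part of that difference in the family's shift was not tested.

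**Figure D2:**
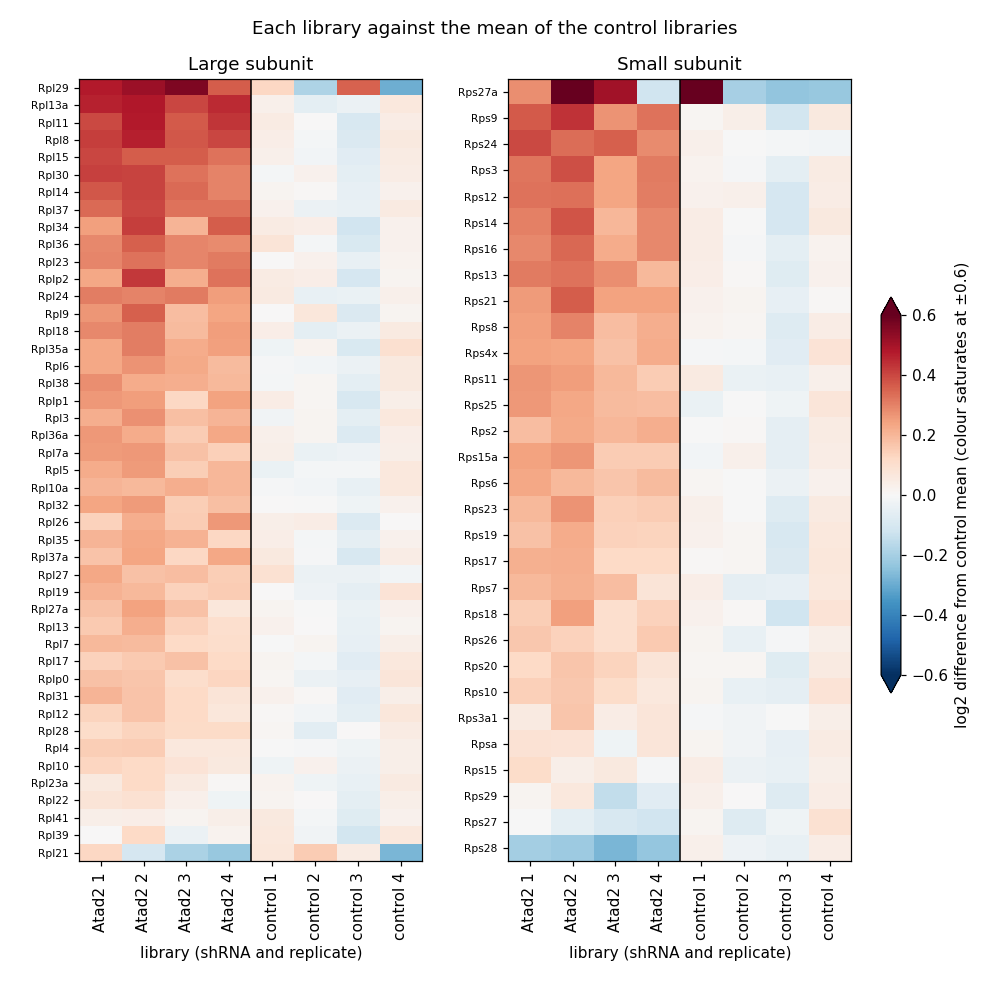
Log2 difference of each library from the mean of the 4 control libraries for the ribosomal protein genes shown, ordered by log2 fold change within each subunit, with the 4 Atad2 shRNA libraries on the left of each panel and the 4 control libraries on the right. Nearly all rows are red in the Atad2 shRNA libraries and pale in the controls. Rps28 is blue in all 4 Atad2 shRNA libraries, and Rps27a varies within both groups, with 1 library of each past the end of the colour scale.

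The scale of the family's shift depended on the normalization, and its direction did not. The median over the 77 genes was positive in each of the 20 other fits of the levels, from 0.09 to 0.22. Quantile and cyclic loess normalization, which force the libraries towards a common distribution or trend, gave medians of 0.09 and 0.09 with 47 and 44 genes higher. Scaling on other genes above a level of 10 gave 0.13 and scaling to library totals 0.13, and these also moved the share of all calls that were higher to 38.4% and 37.6%, against 51.0% as deposited.

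The subunits differed little in their shift on the deposited scale. Of the 46 large subunit genes 41 were higher, 0 lower and 5 without a call, and of the 31 small subunit genes 26 were higher, 1 lower and 4 without a call. No large subunit gene was lower at an unadjusted p under 0.05 in limma, and none with limma-voom on recovered reads. The median log2 fold change was 0.20 for the large and 0.20 for the small subunit, and the difference of these medians, large minus small, was 0.00225. The interquartile range was 0.14 to 0.30 in the large subunit and 0.13 to 0.28 in the small one. In reads, the large subunit made up 1.95 ± 0.03% of a library with Atad2 shRNA and 1.79 ± 0.04% in controls (SD, n = 4 each). The small subunit made up 1.21 ± 0.02% with Atad2 shRNA and 1.12 ± 0.03% in controls. The ratio of large to small subunit reads was 1.61, 1.61, 1.63 and 1.62 in the Atad2 shRNA libraries and 1.59, 1.60, 1.61 and 1.60 in the control libraries. The groups did not overlap, but the lowest Atad2 shRNA library, at 1.607, was hardly above the highest control library, at 1.606. Medians per kb of transcript were 31959 normalized counts per kb for the large and 32369 for the small subunit with Atad2 shRNA, and 26276 and 28642 in controls.

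**Figure D3:**
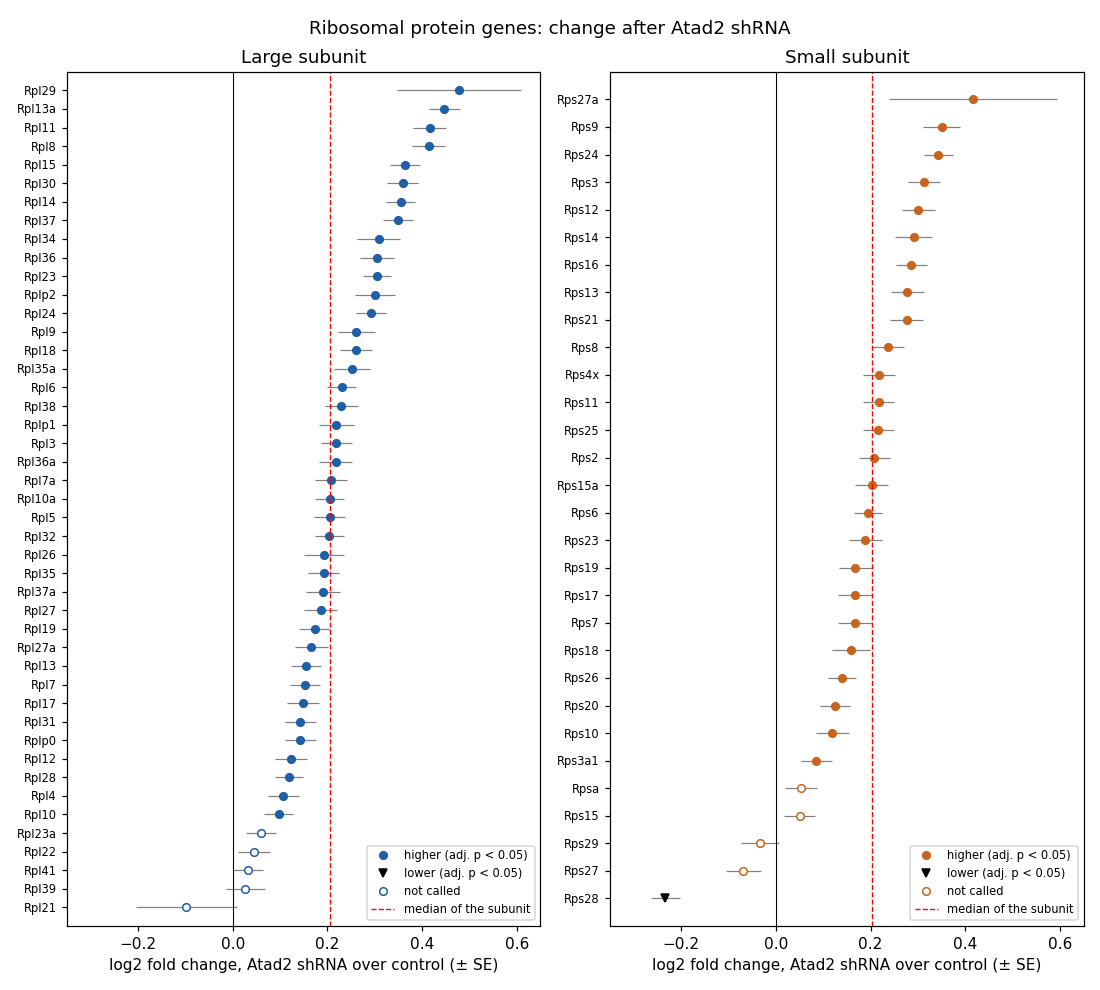
Log2 fold change of Atad2 shRNA over control shRNA (x axis, points with SE) for the large subunit genes (left) and small subunit genes (right) shown, with filled circles for genes that were higher, a triangle for the gene that was lower, open circles for genes without a call, and a dashed line at the median of the subunit. Both panels centre near 0.20, the highest genes are Rpl29 and Rps27a with wide errors, and Rps28 stands alone on the left.

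Among the large subunit genes the clearest increases were in Rpl13a, Rpl11 and Rpl8. Rpl13a, a surface protein that in human myeloid cells leaves the ribosome to silence inflammatory mRNAs, lay on chromosome 7 at 45125563 to 45128745. Its levels were 15.12, 15.13, 15.05 and 15.10 in the Atad2 shRNA libraries and 14.69, 14.60, 14.62 and 14.72 in the control libraries. The lowest of the first group was well above the highest of the second, and the log2 fold change was 0.45 ± 0.03, or 1.36-fold (limma adjusted p = 2.2e-10). Rpl8, which lies next to the peptidyl transferase centre (chromosome 15, 76904071 to 76906318), stood at 16.27, 16.32, 16.22 and 16.25 with Atad2 shRNA and at 15.89, 15.84, 15.77 and 15.91 in controls. Again the groups did not overlap, with a log2 fold change of 0.41 ± 0.03 (limma adjusted p = 2.0e-09). Neither Rpl8 nor Rps3 had a near-identical coding sequence elsewhere in the GENCODE M21 transcripts.

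Rpl11 and Rpl5 travel with the 5S ribosomal RNA into the large subunit and are the ribosomal proteins that bind Mdm2 most firmly. Rpl11 (chromosome 4, 136049354 to 136053393) stood at 14.80, 14.88, 14.77 and 14.83 in the Atad2 shRNA libraries and at 14.46, 14.40, 14.31 and 14.45 in the control libraries. The groups were well apart, and the log2 fold change was 0.42 ± 0.04 (limma adjusted p = 2.1e-09). Rpl5 (chromosome 5, 107900508 to 107909005) stood at 14.77, 14.80, 14.70 and 14.75 with Atad2 shRNA and at 14.51, 14.54, 14.54 and 14.61 in controls. It too did not overlap, with a smaller difference of 0.20 ± 0.03 (limma adjusted p = 1.3e-05), close to the median of the family. Mdm2 itself was higher by 0.30 ± 0.04, at 13.49 ± 0.08 with Atad2 shRNA and 13.19 ± 0.03 in controls (SD, n = 4 each, limma adjusted p = 7.8e-07).

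Rpl15, Rpl30 and Rpl14 followed, with non-overlapping groups in each. Rpl15, a core protein of the large subunit (chromosome 14, 18267823 to 18270986), lay at 14.01, 13.97, 13.97 and 13.94 in the Atad2 shRNA libraries and at 13.64, 13.59, 13.54 and 13.66 in the control libraries. Its log2 fold change was 0.36 ± 0.03. Rpl30 (chromosome 15, 34440505 to 34443276), whose yeast counterpart represses the splicing of its own transcript, lay at 14.29, 14.29, 14.21 and 14.18 with Atad2 shRNA and at 13.87, 13.91, 13.83 and 13.93 in controls, a difference of 0.36 ± 0.03. Rpl14 (chromosome 9, 120571517 to 120574653) lay at 14.42, 14.46, 14.39 and 14.35 with Atad2 shRNA and at 14.07, 14.06, 14.00 and 14.08 in controls, a difference of 0.35 ± 0.03. The limma adjusted p was 4.8e-09 for Rpl15, 1.1e-08 for Rpl30 and 4.8e-09 for Rpl14.

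**Figure D4:**
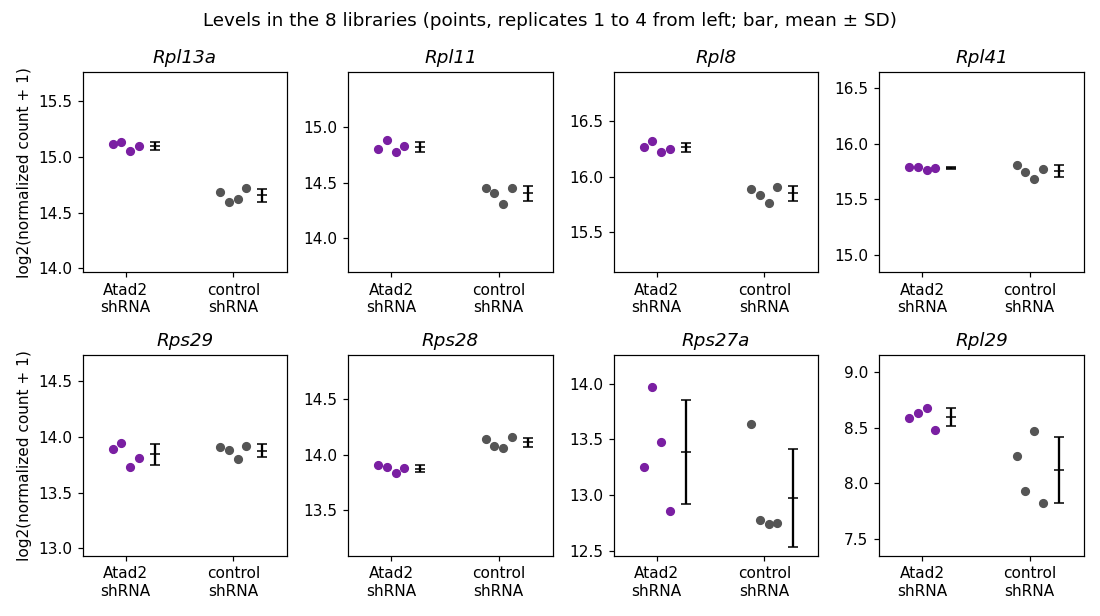
Levels in log2(normalized count + 1) (y axis, each panel spanning the same range) of 8 ribosomal protein genes in the 4 Atad2 shRNA libraries (left) and the 4 control libraries (right), as points per library with the mean and SD beside them. Rpl13a, Rpl11 and Rpl8 are higher in all 4 Atad2 shRNA libraries, Rpl41 and Rps29 overlap, Rps28 is lower, and Rps27a and Rpl29 vary widely between replicates.

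The largest difference by value, in Rpl29, was also among the least certain. Rpl29 (chromosome 9, 106428889 to 106431568) was the weakest member, with 308 to 421 reads in the Atad2 shRNA libraries and 242 to 381 in the control libraries. Its levels were 8.59, 8.63, 8.68 and 8.48 with Atad2 shRNA and 8.24, 7.93, 8.47 and 7.82 in controls. The groups came close to each other without overlapping. The log2 fold change was 0.48 ± 0.13 (95% interval 0.20 to 0.75, limma adjusted p = 0.00368), and the adjusted p was 0.0702 without the filter on low values. Near-identical coding sequence, at 95% identity over at least 90% of its length, was found in 27 other annotated genes, among which the counting could have divided its reads. Rpl21, the second weakest, shares its sequence with 56 others and did not pass the test, at -0.10 ± 0.11 (95% interval -0.32 to 0.13, limma adjusted p = 0.443). Per kb of transcript these were the lowest of the family. Rpl29 had 663 normalized counts per kb with Atad2 shRNA and 482 in controls, and Rpl21 had 524 with Atad2 shRNA and 561 in controls, against a median over the members of 32369 with Atad2 shRNA and 27673 in controls.

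The 4 proteins of the stalk and its base, the flexible arm of the large subunit that recruits translation factors, all rose. So did 67 of the 77 members, beside 30.8% of all genes tested and 56.5% of other abundant genes. Rplp0, its base, stood at 16.73, 16.73, 16.67 and 16.69 in the Atad2 shRNA libraries and at 16.57, 16.53, 16.51 and 16.63 in the control libraries, a difference of 0.14 ± 0.03 (limma adjusted p = 0.00104). The groups did not overlap. The acidic stalk proteins Rplp1 and Rplp2 were higher by 0.22 ± 0.04 and 0.30 ± 0.04 without overlap. Rpl12, which binds beside Rplp0, was higher by 0.12 ± 0.03, with the lowest Atad2 shRNA library at 15.44 and the highest control library also at 15.44. The calls of Rplp0 and Rpl12 were lost under 3 and 5 of 21 alternatives.

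At the tunnel through which the new protein leaves, 6 of 8 members were higher and 0 lower (median 0.15). In the whole family 67 of 77 were higher and 1 lower. Of all genes tested 30.8% were higher and 29.6% lower, and of other abundant genes 56.5% and 21.0%. Rpl4, whose loop lines the tunnel and which has the longest coding sequence of the family, lay at 16.11, 16.12, 16.03 and 16.03 with Atad2 shRNA and at 15.96, 15.96, 15.94 and 16.00 in controls. The groups did not overlap and the difference was 0.11 ± 0.03 (limma adjusted p = 0.00662), but 5 of 21 alternatives gave no such call (with a limma adjusted p of up to 0.746), with a value below 0 under quantile or cyclic loess normalization. Rpl39, a very short protein in the tunnel wall, lay at 13.30, 13.42, 13.26 and 13.32 with Atad2 shRNA and at 13.36, 13.28, 13.19 and 13.36 in controls. These groups overlapped, and the difference of 0.03 ± 0.04 did not pass the test (95% interval -0.06 to 0.11, limma adjusted p = 0.591). Rpl23a, at the tunnel rim where targeting factors dock, was at 14.44 ± 0.05 with Atad2 shRNA and 14.38 ± 0.04 in controls (SD, n = 4 each), a difference of 0.06 ± 0.03 that did not pass either (95% interval -0.01 to 0.13, limma adjusted p = 0.115). Without the fourth Atad2 shRNA library Rpl23a was higher (limma adjusted p = 0.0400).

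The other large subunit genes without a call were Rpl22 and Rpl41. Rpl22, whose loss in mice is known to raise its paralog Rpl22l1, was at 13.35 ± 0.05 with Atad2 shRNA and 13.30 ± 0.04 in controls (SD, n = 4 each), a difference of 0.04 ± 0.03 (95% interval -0.03 to 0.12). Rpl41, the shortest ribosomal protein, forms a bridge between the subunits. Its levels were 15.79, 15.79, 15.77 and 15.79 in the Atad2 shRNA libraries and 15.81, 15.74, 15.68 and 15.78 in the control libraries. The Atad2 shRNA libraries lay within the range of the controls, and the difference was 0.03 ± 0.03 (95% interval -0.03 to 0.10, limma adjusted p = 0.399). Per kb, Rpl41 was the most abundant member, at 129182 normalized counts per kb with Atad2 shRNA and 126437 in controls. Next came Rpl8 with 92452 in the Atad2 shRNA libraries and 69432 in controls, and Rplp0 with 78574 in the Atad2 shRNA libraries and 71185 in controls.

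In the small subunit, the 2 listed proteins at the channel where mRNA enters rose, as did 26 of its 31 members. Of all genes tested 30.8% were higher, and of other abundant genes 56.5%. Rps3, which helps the ribosome unwind mRNA, stood at 15.04, 15.11, 14.95 and 15.03 with Atad2 shRNA and at 14.74, 14.71, 14.66 and 14.77 in controls. The groups did not overlap, and the difference was 0.31 ± 0.03 (limma adjusted p = 1e-07). Its neighbour Rps2 was higher by 0.21 ± 0.03. Rps9 and Rps24 were the highest small subunit genes with tight replicates, at 0.35 ± 0.04 and 0.34 ± 0.03, and of the beak proteins Rps12 and Rps10 were higher by 0.30 ± 0.04 and 0.12 ± 0.03. Rps6, the substrate of S6 kinase, stood at 14.85, 14.81, 14.78 and 14.81 with Atad2 shRNA and at 14.63, 14.62, 14.58 and 14.64 in controls, a difference of 0.19 ± 0.03 near the middle of the family. Rps19, the gene most often mutated in human Diamond-Blackfan anaemia, was higher by 0.17 ± 0.03. Neither gene's groups overlapped, and the call of Rps19 was lost under 2 of 21 alternatives.

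The channel where mRNA leaves gave the widest split. Rps28, which contacts the mRNA upstream of the codons being read (chromosome 17, 33823036 to 33824562), lay at 13.90, 13.89, 13.83 and 13.88 in the Atad2 shRNA libraries and at 14.14, 14.08, 14.06 and 14.15 in the control libraries. Every Atad2 shRNA library was below every control library, and Rps28 fell by 0.23 ± 0.03 on the log2 scale, or 1.18-fold (limma adjusted p = 1.7e-06). This call held under all 21 alternatives, with log2 fold changes of -0.35 to -0.22. Its neighbours Rps14 and Rps26 were higher by 0.29 ± 0.04 and 0.14 ± 0.03, but Rps26 did not pass in 3 of 21 alternatives (with a limma adjusted p of up to 0.502). Rpsa, also known as a precursor of the laminin receptor, stood at 16.30, 16.30, 16.19 and 16.29 with Atad2 shRNA and at 16.23, 16.19, 16.17 and 16.26 in controls. The groups overlapped through the third Atad2 shRNA library, and the difference was 0.05 ± 0.03 (95% interval -0.02 to 0.12, limma adjusted p = 0.179).

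Rps15, whose tail reaches the decoding site, was at 14.58 ± 0.05 with Atad2 shRNA and 14.53 ± 0.05 in controls (SD, n = 4 each), a difference of 0.05 ± 0.03 (95% interval -0.02 to 0.12). The zinc-binding proteins Rps27 and Rps29 also did not pass the test. Rps27 lay at 13.30, 13.24, 13.20 and 13.19 in the Atad2 shRNA libraries and at 13.32, 13.22, 13.28 and 13.39 in the control libraries, a difference of -0.07 ± 0.04 (95% interval -0.15 to 0.01, limma adjusted p = 0.114). Rps29 lay at 13.89, 13.94, 13.73 and 13.81 with Atad2 shRNA and at 13.91, 13.88, 13.80 and 13.92 in controls, a difference of -0.03 ± 0.04 (95% interval -0.12 to 0.05, limma adjusted p = 0.490). For both genes the groups overlapped. Under 5 normalizations both were lower, among them scaling to library totals, and Rps27 was also lower without the second control library (limma adjusted p = 0.0406).

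Rps27a encodes a small subunit protein fused to ubiquitin, and its replicates varied far more than those of the other members. Its levels were 13.25, 13.97, 13.48 and 12.85 in the Atad2 shRNA libraries and 13.63, 12.77, 12.74 and 12.74 in the control libraries. The first control library stood above 3 of the 4 Atad2 shRNA libraries, and the control SD was 8.38 times the median of the family. The difference of 0.42 ± 0.18 (95% interval 0.05 to 0.79) only just passed (limma adjusted p = 0.0489). It did not pass in 13 of 21 alternatives, and the adjusted p ranged over all of them from 0.00107 to 0.577. Without the second Atad2 shRNA library the difference was 0.22 (limma adjusted p = 0.242), and without the first control library 0.64 (limma adjusted p = 0.00107). The call was also lost without the third Atad2 shRNA library (limma adjusted p = 0.0990) and without control library 2, 3 or 4 (limma adjusted p = 0.139, 0.154 and 0.139). The ubiquitin gene Ubb, named after its values were seen, was higher by 0.26 ± 0.04.

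To describe which members departed from the rest of the family, each library was centred on its median ribosomal protein gene and the limma fit repeated over all genes. Against this moving centre 17 members were higher, 14 lower and 46 without a call, beside a background of 11.7% of all genes higher and 51.4% lower. Because the centre is the median of these same members, values on both sides of it are built in. The background shares move with the family's own shift and give no measure of the members. By subunit, 12 large and 5 small subunit genes were above the family, and 8 large and 6 small subunit genes below it. Rpl13a led those above at 0.24 (limma adjusted p = 2.1e-06), followed by Rpl11 and Rpl8 at 0.21 each and Rpl15 and Rpl30 at 0.16 each. The others above were Rpl14, Rps9, Rpl37, Rps24, Rps3, Rpl34, Rpl36, Rpl23, Rps12, Rplp2, Rpl24 and Rps14. Below were Rps28 at -0.44 (limma adjusted p = 6.7e-11), Rpl21 at -0.30, Rps27 at -0.27, Rps29 at -0.24, Rpl39 at -0.18 and Rpl41 at -0.17. Also below were Rpl22, Rps15, Rpsa, Rpl23a, Rps3a1, Rpl10 and Rpl4, of which the last 3 were higher on the deposited scale. This centring was chosen after the data were seen.

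The members with the shortest coding sequences lay at the low end. Rpl41 with 25 codons, Rpl39 with 51, Rps29 with 56 and Rps28 with 69 were none of them higher, while Rpl38 with 70 codons, a protein required in mice for the translation of a set of Hox mRNAs, was higher by 0.23 ± 0.03. With class limits that were not planned, the median difference over these 5 members under 75 codons was 0.03. It was 0.20 over the 31 members of 75 to under 150 codons, 0.22 over the 29 of 150 to under 250 and 0.21 over the 12 of 250 or more. Among other genes with a mean level of at least 13, those under 75 codons were also few and low, with 0 of 5 higher, 4 lower and a median of -0.32. The other abundant genes had medians of 0.13 over 61 genes of 75 to under 150 codons, 0.12 over 153 genes of 150 to under 250 and 0.11 over 1376 genes of 250 or more.

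**Figure D5:**
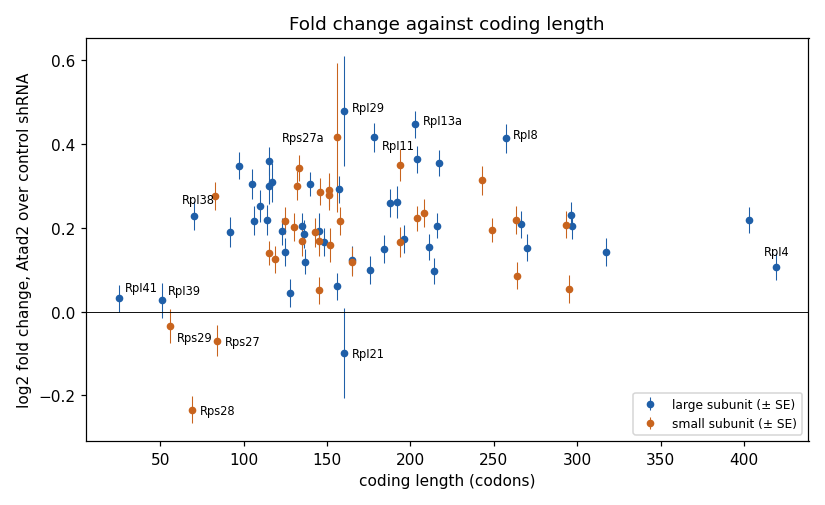
Log2 fold change of Atad2 shRNA over control shRNA with its SE (y axis) against coding length in codons (x axis) for the 77 ribosomal protein genes, by subunit. Rpl41, Rpl39, Rps29, Rps28 and Rps27 lie near or below 0 at the left end, and no trend is seen over the longer genes. In the same stretch Rpl38 (70 codons) and the unlabelled Rps21 (83 codons) lie higher, at 0.23 and 0.28, beside Rps27 with 84 codons.

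Over all 77 genes the difference was hardly related to other properties. Spearman's rho with the log2 fold change, given as a description across genes that share libraries, was 0.09 for coding length, 0.03 for the GC content of the coding sequence, -0.13 for the control level and -0.14 for the number of near-identical genes. Of the 4 X-linked members, Rps4x and Rpl36a were higher by 0.22 ± 0.03 and 0.22 ± 0.04, Rpl10 by 0.10 ± 0.03, and Rpl39 did not pass the test. Rpl10 is among the last proteins to join the large subunit.

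Differences by promoter motif are given as descriptions over the 57 genes with an entry. The median log2 fold change was 0.19 over the 32 genes with CCGGAA and 0.21 over the 25 without. The medians with and without a pyrimidine run were 0.20 over 40 genes and 0.19 over 17. The 6 genes with CACGTG, Rpl13a among them, were all higher, with a median of 0.31. Of the 51 without, 44 were also higher, 1 was lower and 6 had no call, with a median of 0.19. Of the 6 genes with TATAAA, 3 were higher, 1 was lower (Rps28) and 2 did not pass the test, with a median of 0.09. Of the 51 genes without TATAAA, 47 were higher and 4 without a call, with a median of 0.20.

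Ribosomal proteins outside the symbol rule gave a mixed picture. Fau, which encodes a ubiquitin-like protein fused to a small subunit protein, and Rack1, a signalling scaffold on the small subunit head, were higher by 0.12 ± 0.03 and 0.16 ± 0.03. The call of Fau was lost under 5 and that of Rack1 under 2 of 21 alternatives. Of 12 paralogs listed, 9 were found and 5 could be tested, with 2 higher and 2 lower. Rpl22l1, the paralog of Rpl22, lay at 10.999, 11.144, 10.796 and 10.979 with Atad2 shRNA and at 10.231, 10.402, 10.264 and 10.240 in controls. The groups did not overlap, and its difference of 0.70 ± 0.07 (limma adjusted p = 1.2e-08) was larger than that of any member. Rpl7l1, which acts in large subunit maturation, was higher by 0.45 ± 0.04. Rps27l, a paralog of Rps27 known as a p53 target, and Rpl36al, an autosomal copy of Rpl36a, were lower by values of -0.17 ± 0.04 and -0.16 ± 0.04 without overlap (limma adjusted p = 0.00125 and 0.00297). Rps27rt did not pass, at -0.21 ± 0.09 (limma adjusted p = 0.0608), but was lower under 5 of 21 alternatives (limma adjusted p down to 0.0127), among them without the first Atad2 shRNA library (limma adjusted p = 0.0147) and without the first control library (limma adjusted p = 0.0364). The muscle-specific Rpl3l had 0, 1, 2 and 7 recovered reads in the Atad2 shRNA libraries and 0 in each control library, below the filter, and Rpl10l, Rpl39l and Rps4l had 0 reads in all 8.

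Genes that work with ribosomal proteins were described by fixed lists chosen with earlier results of these data known. Of 17 dedicated chaperones, importers and assembly factors, 12 were higher and 0 lower, and the median was 0.23. No gene of this list was lower at an unadjusted p under 0.05 in limma, and 1 was lower with limma-voom. Grwd1, the chaperone of Rpl3, was highest at 0.51 ± 0.06, followed by the importin Ipo4 at 0.50 ± 0.03. The importins Ipo5 and Tnpo1 were at the low end, at -0.04 ± 0.03 and 0.04 ± 0.03, without a call. Ipo5 was lower under 5 of 21 alternatives (limma adjusted p down to 2.5e-05) and Tnpo1 under 2. Of 19 other TOP mRNAs, 15 were higher and 0 lower (median 0.19), and 0 were lower at an unadjusted p under 0.05 or with limma-voom. Gas5, a non-coding snoRNA host, and Npm1, the nucleolar chaperone nucleophosmin, led at 0.74 ± 0.06 and 0.48 ± 0.03, while the initiation factor subunit Eif3h and the nascent chain factor Btf3 were lowest at 0.02 ± 0.04 and 0.05 ± 0.03, without a call. These medians stand beside 0.20 for the family, -0.01 for all genes tested and 0.10 for other abundant genes. Of all genes tested 30.8% were higher and 29.6% lower, and of the other abundant genes 56.5% were higher and 21.0% lower. Some genes of the first list, such as Grwd1 at 11.69 with Atad2 shRNA and 11.18 in controls, lay below the abundant range.

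A list of 16 genes held regulators of TOP mRNAs and of Rps6 phosphorylation, together with Mdm2 and Zak. Of these 16, 9 were higher, Mdm2 among them, and 0 lower, with a median of 0.10. The median was -0.01 over all genes tested, of which 30.8% were higher, and 0.10 over other abundant genes, of which 56.5% were higher. Some of the 16, such as Rps6ka1 and Larp1b, lay well below the level of 13 that defines the abundant genes. None of the 16 was lower at an unadjusted p under 0.05 in limma, and 3 were lower with limma-voom. Larp4, which binds poly(A) and stabilises ribosomal protein mRNAs, was higher by 0.46 ± 0.03, and Rptor, the substrate-binding subunit of mTOR complex 1, by 0.39 ± 0.03. Rps6ka1 and Larp1b were lowest at -0.28 ± 0.14 and -0.09 ± 0.07, without a call, and with voom both were lower. Rps6ka1 was lower under 4 of 21 alternatives, also without the fourth Atad2 shRNA library (limma adjusted p = 0.0436), and Larp1b under 3. Of 13 ribosome rescue factors and ubiquitin ligases or deubiquitinases of ribosomal proteins, 9 were higher and 1 lower, against 6 higher and 3 lower with limma-voom, and the median was 0.19. The deubiquitinase Otud3 was higher by 0.60 ± 0.04 and the rescue GTPase Hbs1l by 0.39 ± 0.04. The ligase Rnf14 was lower, at -0.18 ± 0.04 (limma adjusted p = 0.0003), and Nemf was at -0.03 ± 0.03 without a call, though it was lower under 5 of 21 alternatives, the 4 other scalings that move the family median and voom (limma adjusted p down to 0.00318).

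Annotated processed copies of member genes could be read only with caution, since reads of a parent gene may be counted there. Of 12 that were listed, 10 could be tested, with 4 higher (beside 30.8% of all genes tested) and 0 lower (beside 29.6%) in limma. Of these 10, 0 were lower at an unadjusted p under 0.05 and 0 with limma-voom. Those higher were Rpl14-ps1 at 0.32 ± 0.03, beside 0.35 for Rpl14, Rpl34-ps1 at 0.28 ± 0.04, Rpl17-ps10 at 0.22 ± 0.07 and Rps15a-ps6 at 0.20 ± 0.08. Rpl37rt and Rpl32l, named after their values were seen, were at 0.40 ± 0.07 and 0.05 ± 0.22, the first higher and the second without a call.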

How the data were processed

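Total RNA of 8 C2C12 libraries was sequenced on an Illumina NovaSeq after a strand-keeping NEBNext preparation, per the labels' protocols. The submitters' processing notes name HTSeq 0.13.5, DESeq2, SAMtools 1.1 and bcl2fastq 2.20, in no stated order, and the mouse build mm10. Aligner, annotation and whether counting used strand were not given in the sources used here. Values of overlapping genes and of genes with near-identical copies are uncertain for this reason. The authors deposited 1 table of log2 values, whose form was read from the values as log2(count divided by a size factor, plus 1), rounded to 3 decimals. After conversion back, 100% of low values (under 50 reads) lay within 0.1 reads of a whole number. These recovered reads gave the depths, read ranges and the voom alternative. High read counts are approximate because of the rounding.

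The test, on genes with a mean above 3, was that of limma 3.58.1 (lmFit, eBayes with trend, under R 4.3.3), 4 Atad2 shRNA against 4 control libraries with no covariates, two-sided, with Benjamini-Hochberg adjustment and a threshold of 0.05. For weak genes the added 1 makes a log2 fold change too small. Tables were made in Python 3.11.15 with pandas 2.3.3 and NumPy 2.4.6, and plots in matplotlib 3.10.9. Gene coordinates are from RefSeq on GRCm38, and promoters are from RefSeq on GRCm38.p6. Transcript and coding lengths are from GENCODE M21. Near-identical coding sequences were found among its transcripts with BLAST 2.17.0 (95% identity over 90% of the length). Lengths are those of the shortest principal transcript of a gene, which limits levels per kb where another transcript dominates.

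The genes named were Atad2, the 8 highest and 6 lowest members by log2 fold change, every member lower or without a call, and members and lists picked by role. The members and lists were chosen with earlier results of these data known. The alternatives were other filters (none, mean above 5), an offset of 8, 4 other scalings, eBayes without trend, voom, the replicate block, library weights, leaving out libraries singly and an adjusted p under 0.01. Scaling to library totals and centring on the family median were added after seeing the data. The classes of coding length, the correlations with gene properties and the splits by promoter motif were not part of the plan either. The fit was tested on simulated data made from these libraries, with 15104 genes tested and 50 genes changed at each of 4 sizes. It called 44% of those changed by 0.15 on the log2 scale, 88% at 0.25, 96% at 0.5 and 100% at 1. Small differences can therefore be missed in genes like those simulated. These were drawn over a wide range of levels with a single fixed spread, while 71 of the 77 members averaged at least 13. The shares are thus no measure of how often a change in a member would be called. Far fewer genes changed in the simulation than the 60.4% called in the data. Some genes are not reported here.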

Additional observations from a re-analysis of the deposited data

Results flagged for a closer look

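Within groups of 4 libraries, 5 of the 112 sets of values examined held a library whose gap to the nearest other exceeded the 95% critical share of the range. Chance alone gives such a gap in about 1 in 20 sets. Rps27a stood at 13.634 in the first control library, against 12.738 to 12.773 in the other control libraries. Rpsa stood at 16.187 in the third Atad2 shRNA library, against 16.285 to 16.302 in the others of that group. Rplp1 stood at 14.917 in the same library, against 15.032 to 15.052. Btf3 stood at 13.991 in the third control library, against 14.09 to 14.102. Larp4 stood at 14.232 in the fourth Atad2 shRNA library, against 14.351 to 14.374.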

How the results depend on the processing

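Of 1113 values of 53 named genes under 21 alternatives, 1032 kept their side of the threshold, 44 of these with a change of sign and no call under either setting. Another 38 lost the call and 34 gained one. The last 9, termed reversed, changed sign and had a call either as deposited or under the alternative. Of the genes with a reversed value, only Rpl4 had a call as deposited. The count of ribosomal protein genes higher was 44 after cyclic loess normalization, against 67 as deposited, and the small subunit count was 17 after quantile and 16 after cyclic loess normalization, against 26. The count lower was 5 after quantile and 4 after cyclic loess normalization, and 3 with each of scaling on other genes above 10, scaling to library totals and voom, against 1. The median log2 fold change of ribosomal protein genes was 0.0937 after quantile and 0.0907 after cyclic loess normalization, 0.132 scaled on other genes, 0.127 scaled to totals and 0.127 with voom, against 0.2045. At an adjusted p under 0.01, 9 members were above the family median, against 17. Reversed values were, after quantile normalization, -0.095 for Rpsa, -0.067 for Rps15, -0.030 for Rpl4, -0.080 for Tnpo1 and -0.089 for Eif3h. After cyclic loess normalization they were -0.086 for Rpl41, -0.011 for Rpl4, -0.076 for Tnpo1 and -0.087 for Eif3h. The cause was not tested. Of all calls, 51.0% were higher as deposited, 38.4% scaled on other genes, 37.6% scaled to totals and 37.4% with voom.

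Leaving out each library gave 64 to 68 ribosomal protein genes higher and 1 to 2 lower (2 without the second control library), 40 to 42 large and 24 to 26 small subunit genes higher, a family median of 0.189 to 0.220 and a large minus small difference of -0.005 to 0.013. Members above the family median numbered 12 to 17 and those below 12 to 15, genes higher 4254 to 4573 and lower 4039 to 4401, and Atad2 lay at -2.78 to -2.68. The labels number the libraries 1 to 4 in each group without saying that a number is shared, and residuals of same-numbered libraries correlated at 0.034, -0.023, 0.021 and 0.011, so the numbers give no pairing. With the replicate block 67 ribosomal protein genes were higher and 1 lower, and 4562 of all genes were higher and 4379 lower. The weakest member, Rpl29, had at least 242 reads in every library.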
